A study of Mus musculus with 6 samples.

Results

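The genes described here are 41 homeobox genes. Of these, 31 are Hox genes of the HOXA, HOXB, HOXC and HOXD clusters. A further 7 are TALE genes (Meis1 to Meis3, Pbx2 to Pbx4 and Pknox1), and the other 3 are Hhex, Lhx2 and Nkx2-3. The 41 genes were matched by exact gene symbol to the annotation of the array. It gives 18193 genes at least 1 probe set annotated to that gene alone, 38 of the 41 among them. Expression was measured on 6 Affymetrix arrays in bone marrow cells sorted as lineage negative, cKit+ and Sca1-, which the labels call myeloerythroid progenitors. The ICN2-positive group (3 arrays) had the genotype Rosa-lsl-ICN2 Mx1-cre+, and its ICN2-negative littermates (3 arrays) were Mx1-cre+. All mice were labelled as 6 weeks old, received polyIC 3 times at 20 mcg per g of body weight on alternate days, and were taken 1 week after the last dose. PolyIC induces interferon and with it Mx1-cre, which is active in many cell types and not in progenitors alone, and the recombinase removes the stop cassette in front of the ICN2 transgene, the intracellular and constantly active part of Notch2. The ICN2-positive samples came from males and the ICN2-negative samples from females, and a difference between the groups given here may be one of genotype or of sex, which cannot be told apart. No label says whether replicates were separate or pooled mice, so the p-values rest on the spread among these arrays, and that spread may be technical.

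Hox proteins are transcription factors whose genes lie in clusters, and in blood formation HOXA and HOXB genes are most active in stem and early progenitor cells and are shut off as cells mature. They bind DNA together with TALE proteins, named for a loop extension in their homeodomain: Pbx proteins pair with Hox proteins, and Meis proteins and Pknox1 (also called Prep1) pair with Pbx. Hoxa9 and Meis1 act together in progenitor self-renewal and in leukaemia. Intracellular Notch acts through the DNA-binding protein RBPJ, which reads the letters TGGGAA.

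Promoters are shown for Meis1, Pbx2, Hoxa9 and Hoxb4, members on which the comparison turns and for which RefSeq start sites (GRCm38.p6) were in the sequence table. Each line holds the 250 bases before the start site, 5′ to 3′ on the strand of the gene, and capitals mark TGGGAA on either strand. The Meis1 window is chr11:19018970-19019219 on the minus strand, that of Pbx2 is chr17:34592009-34592258 on the plus strand, that of Hoxa9 is chr6:52227371-52227620 on the minus strand and that of Hoxb4 is chr11:96318017-96318266 on the plus strand.
Meis1: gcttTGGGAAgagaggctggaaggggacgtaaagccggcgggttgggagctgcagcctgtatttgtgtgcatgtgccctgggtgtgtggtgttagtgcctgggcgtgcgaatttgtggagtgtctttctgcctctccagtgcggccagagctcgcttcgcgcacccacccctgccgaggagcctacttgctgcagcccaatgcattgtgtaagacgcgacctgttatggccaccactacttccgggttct
Pbx2: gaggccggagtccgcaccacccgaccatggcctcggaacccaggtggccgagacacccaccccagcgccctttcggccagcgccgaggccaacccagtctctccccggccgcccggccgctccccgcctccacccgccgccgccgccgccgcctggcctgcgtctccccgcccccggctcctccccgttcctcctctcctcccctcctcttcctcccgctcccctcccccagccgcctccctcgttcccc
Hoxa9: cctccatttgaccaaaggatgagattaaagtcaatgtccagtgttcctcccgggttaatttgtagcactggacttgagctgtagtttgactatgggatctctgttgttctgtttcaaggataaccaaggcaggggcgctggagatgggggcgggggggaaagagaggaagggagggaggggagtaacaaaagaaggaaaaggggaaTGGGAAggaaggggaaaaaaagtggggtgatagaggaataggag
Hoxb4: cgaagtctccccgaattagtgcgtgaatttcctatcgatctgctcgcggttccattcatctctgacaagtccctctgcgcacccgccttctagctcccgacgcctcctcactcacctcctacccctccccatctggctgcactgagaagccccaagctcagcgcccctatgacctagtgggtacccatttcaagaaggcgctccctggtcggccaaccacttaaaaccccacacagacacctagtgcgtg
TGGGAA stands 246 bases before the Meis1 start and 44 bases before the Hoxa9 start, and these letters are not in the windows of Pbx2 and Hoxb4. Among 32851 promoters of the same length 21.6% hold TGGGAA on at least 1 strand, and among 25 promoters of 23 measured members 7 do. The letters TGACAG, bound by Meis proteins, are in 2 of the 25 (15.9% of all), which belong to Hoxa2 and Hoxa3. The letters TGATNNAT, bound by Pbx with Hox, are in 2 of the 25 (7.68% of all), which belong to Hoxa2 and Hoxb1. These are letter matches only, and no binding was measured.

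Of the 41 genes, 38 had a probe set annotated to a single gene, and Hoxa6, Hoxb8 and Hoxd4 are not analysed here. For each gene the probe set with the highest average intensity was used, on the log2 scale, and the gene was tested where it lay above the 40th percentile of its array on at least 3 of 6 arrays. This limit, between 5.26 and 5.30 on the log2 scale, is not a measured background. It left 19 members: 5 of 9 measured HOXA genes, 3 of 9 HOXB genes, 3 of 6 HOXC genes, none of 4 HOXD genes, 6 of 7 TALE genes, Hhex and Nkx2-3. Of the 19 members that were not tested, 18 lay below the limit on every array, and Hoxa4 lay above it on ICN2-positive replicate 2 alone, at 5.65. The members that passed were Hoxa3, Hoxa5, Hoxa7, Hoxa9, Hoxa10, Hoxb3, Hoxb4, Hoxb13, Hoxc5, Hoxc6 and Hoxc9 among the Hox genes.

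**Figure D1:**
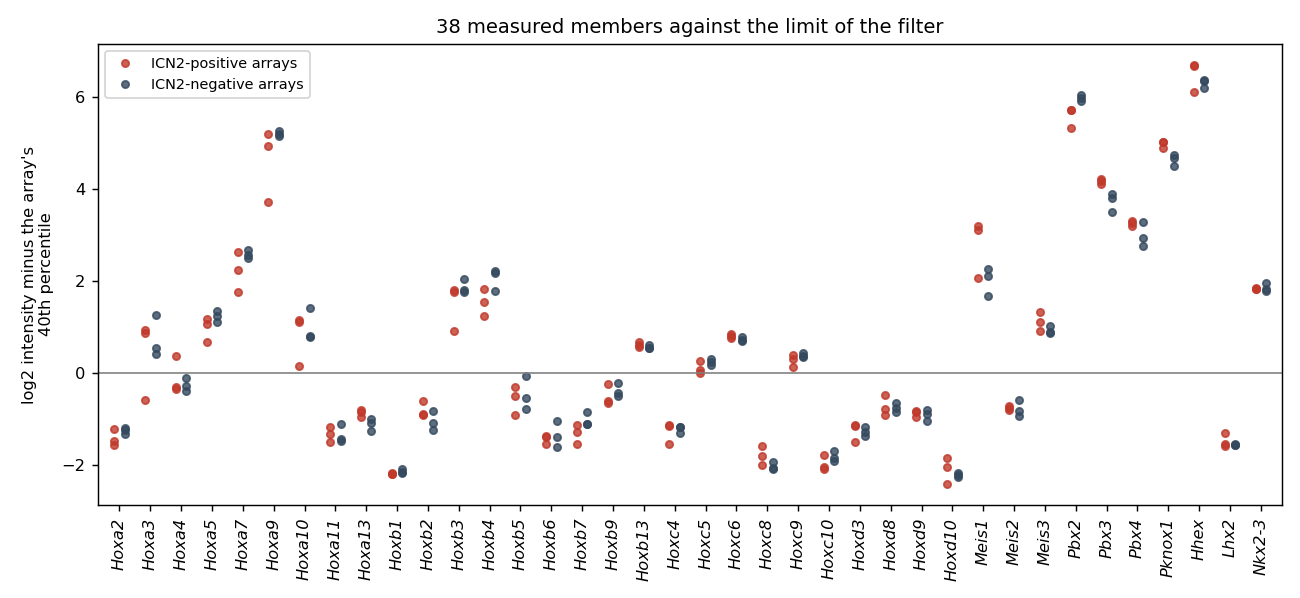
Log2 intensity of the 38 measured members minus the 40th percentile of each array (y axis), with ICN2-positive arrays left of ICN2-negative arrays for each gene; points are arrays and the line at 0 is the limit of the filter. All 4 measured HOXD genes lie below the line on every array, while Hoxa7, Hoxa9, Hoxb3, Hoxb4 and the tested TALE genes lie above it on all 6.

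ICN2-positive and ICN2-negative progenitors were compared to ask how expression of these genes differs between them. Active Notch2 and sex differ together between these groups. Of the 19 tested members 0 were called by limma at an adjusted p under 0.05, where 4.35% of 12834 genes were (2.58% higher and 1.77% lower in ICN2-positive cells). At an unadjusted p under 0.05 there were 4 members, against 27.4% of all genes: Pbx3 and Pknox1 with higher means in ICN2-positive cells (15.3% of all genes) and Pbx2 and Hoxb4 with lower means (12.2%). The groups did not overlap for 3 of 19 members, against 37.5% of all genes: Pbx3 and Pknox1 above (20.6%) and Pbx2 below (16.9%). Over single probe sets, 6 of 31 member probe sets past the filter had an unadjusted p under 0.05, against 24.3% of all. Each of these shares was below that over all genes or probe sets. Of the 19 differences 8 were above 0 and 11 below it, with a median of -0.11 on the log2 scale, where 53% of all genes were above 0 and 47% below it, with a median of 0.02. Without ICN2-positive replicate 1 the members split nearly evenly, with 10 above 0 and 9 below it, and the median changed sign to 0.02. Hoxa3 and Hoxa10 were the members that crossed 0. Over all genes in that fit 6669 were above 0 and 6165 below it, with a median of 0.01. Over all arrays 9 of 11 Hox differences were below 0 (median -0.28), and ICN2-positive replicate 1 was the lowest array for 6 of the 11. Without that array 7 of 11 were below 0 (median -0.14). Of the 6 TALE differences 5 were above 0, with a median of 0.29 over all arrays and 0.28 without that array. The difference between Hox and TALE members was not tested. Array weights were also estimated by limma, from the spread of these same values about the group means and not from a measured quality. With them 25.4% of all genes and 5 of 19 members were called. Meis1 (1.15), Pbx3 (0.52) and Hhex (0.38) were higher (13.6% of all genes) and Hoxb4 (-0.69) and Pbx2 (-0.27) lower (11.8%).

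**Figure D2:**
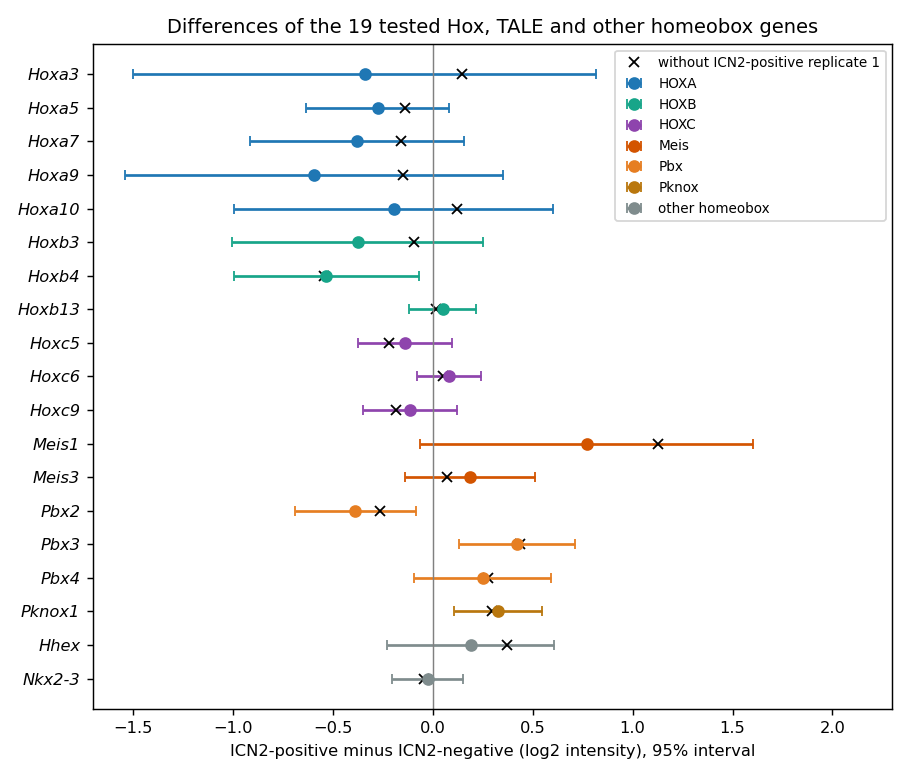
Difference in log2 intensity, ICN2-positive minus ICN2-negative, for the 19 tested members (points) with its 95% interval from limma (bars), coloured by cluster or family; crosses are the difference without ICN2-positive replicate 1. The intervals of Pbx3 and Pknox1 lie above 0 and those of Pbx2 and Hoxb4 below it before adjustment, and the crosses of Hoxa3 and Hoxa10 lie on the other side of 0 from their points.

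Of the TALE genes, Pbx3, a Pbx partner that Hoxa9 also uses in leukaemia, had 9.42, 9.44 and 9.50 log2 intensity in ICN2-positive replicates 1 to 3, against 9.19, 9.10 and 8.80 in ICN2-negative replicates 1 to 3. All 3 ICN2-positive arrays were above all 3 ICN2-negative arrays, and they lay close together (SD 0.04, against 0.21 in the ICN2-negative group, n = 3 each). The difference was 0.42 ± 0.12 (SE), or 1.34-fold, with a 95% interval of 0.13 to 0.71 and an adjusted p of 0.09997 in limma. Its other probe set gave 7.71, 7.79 and 7.58 in ICN2-positive cells and 7.34, 6.98 and 7.22 in ICN2-negative cells, again without overlap. That difference was 0.51 ± 0.12 (adjusted p = 0.0857 in limma over 27424 probe sets). The mean of both probe sets differed by 0.47 and passed the test (adjusted p = 0.0458 in limma, with 5.19% of 12053 genes called and 3.09% called higher), where it was the only member of 16 tested to do so.

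Pknox1, the Pbx-binding protein Prep1, had 10.33, 10.29 and 10.18 log2 intensity in ICN2-positive cells, against 9.97, 9.80 and 10.04 in ICN2-negative cells. Again each ICN2-positive array was above each ICN2-negative array. The difference was 0.33 ± 0.09, or 1.25-fold, with a 95% interval of 0.11 to 0.55 and an adjusted p of 0.0971 in limma. A second probe set also separated the groups, with 9.61, 9.45 and 9.35 in ICN2-positive cells, against 9.06, 9.11 and 9.17 in ICN2-negative cells (difference 0.36 ± 0.09). In the remaining probe set the groups overlapped (0.23 ± 0.18). At an adjusted p under 0.1, which 12.5% of all genes met (7% higher), Pbx3 and Pknox1 were the 2 members called.

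Pbx2, a broadly expressed Pbx gene, was on the opposite side, with 10.631, 10.998 and 11.008 log2 intensity in ICN2-positive cells, against 11.201, 11.327 and 11.273 in ICN2-negative cells. Every ICN2-positive array was below every ICN2-negative array, and ICN2-positive replicate 1 was the lowest. The difference was -0.39 ± 0.12, with a 95% interval of -0.69 to -0.09 and an adjusted p of 0.119 in limma. The groups did not overlap in its other probe sets either, which differed by -0.18 ± 0.08 and -0.34 ± 0.17. Without ICN2-positive replicate 1 the difference was -0.26 (adjusted p = 0.108 in limma).

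Meis1, the partner of Hoxa9 in progenitors, differed most in size among the members. It had 7.38, 8.47 and 8.40 log2 intensity in ICN2-positive cells, against 7.56, 7.40 and 6.98 in ICN2-negative cells. ICN2-positive replicates 2 and 3 were above every ICN2-negative array, while replicate 1 lay within the ICN2-negative range. Over all arrays the difference was 0.77 ± 0.34, or 1.71-fold, with a 95% interval of -0.06 to 1.60 and an adjusted p of 0.209 in limma. Without ICN2-positive replicate 1 it was 1.12 and passed the test (adjusted p = 0.0405 in limma), as the 1 member called of 19, where 5.98% of all genes were called (2.91% higher and 3.08% lower). Without any other array the adjusted p was 0.246 to 0.439. The second probe set gave 6.79, 7.77 and 6.71 in ICN2-positive cells, against 6.74, 6.28 and 6.02 in ICN2-negative cells, so that replicate 2 stood well above the rest and replicates 1 and 3 lay beside the highest ICN2-negative array (difference 0.74 ± 0.34). The dimmest tested probe set gave 5.32, 6.63 and 5.79 in ICN2-positive cells, against 5.58, 5.71 and 5.30 in ICN2-negative cells (0.38 ± 0.34). Replicate 2 was the highest array in all 3 probe sets, and the groups overlapped in each.

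Pbx4 differed by 0.25 ± 0.14 and by -0.05 ± 0.12 in its other probe set, so that its direction depended on the probe set. Meis3 differed by 0.19 ± 0.13. Neither passed the test (adjusted p = 0.296 and 0.404 in limma). Meis2 was not tested: the probe set of highest mean lay between 4.37 and 4.71 on all arrays, below the limit. A dimmer Meis2 probe set had 3.97, 4.57 and 3.76 in ICN2-positive cells, against 3.37, 3.57 and 3.44 in ICN2-negative cells. There the groups did not overlap (difference 0.64), and every value was below the limit. In the remaining Meis2 probe sets, also below it, the groups overlapped (0.07 and 0.30).

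**Figure D3:**
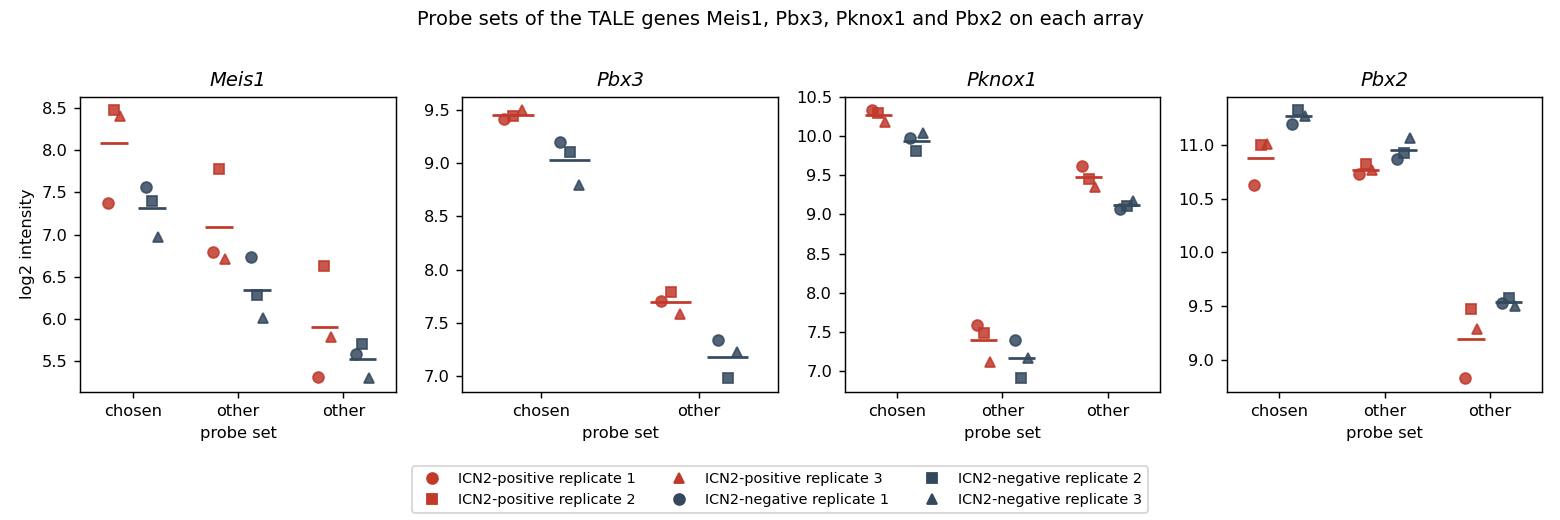
Log2 intensity (y axis) of each probe set past the filter for Meis1, Pbx3, Pknox1 and Pbx2, with ICN2-positive arrays (red) left of ICN2-negative arrays (dark); symbols mark replicates, bars are means and "chosen" is the probe set of highest mean. For Pbx3 both probe sets separate the groups and for Meis1 none does, while ICN2-positive replicate 2 is the highest array in all 3 Meis1 probe sets.

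The HOXA genes were marked by 1 array. Hoxa9, which sustains myeloid and stem cell progenitors, had 9.02, 10.46 and 10.23 log2 intensity in ICN2-positive cells, against 10.45, 10.48 and 10.56 in ICN2-negative cells. Hoxa7, which also acts in myeloid progenitors, had 7.06, 7.90 and 7.53 in ICN2-positive cells, against 7.79, 7.86 and 7.97 in ICN2-negative cells. ICN2-positive replicate 1 was the lowest of all arrays in both genes, while replicate 2 was within the ICN2-negative range, and replicate 3 was below that range but above replicate 1. Hoxa10, a posterior gene also active in myeloid progenitors, had 5.46, 6.41 and 6.40 in ICN2-positive cells, against 6.70, 6.07 and 6.09 in ICN2-negative cells. Hoxa5 had 5.98, 6.33 and 6.45 in ICN2-positive cells, against 6.40, 6.54 and 6.65 in ICN2-negative cells. Hoxa3, an anterior gene of the cluster, had 4.72, 6.20 and 6.15 in ICN2-positive cells, against 6.55, 5.69 and 5.85 in ICN2-negative cells. In all 5 tested HOXA genes ICN2-positive replicate 1 was thus the lowest of 6 arrays, which held for 26.2% of all genes tested.

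The HOXA differences over all arrays were -0.59 ± 0.38 for Hoxa9, -0.38 ± 0.22 for Hoxa7, -0.20 ± 0.32 for Hoxa10, -0.28 ± 0.14 for Hoxa5 and -0.34 ± 0.47 for Hoxa3, with adjusted p of 0.276 to 0.729 in limma. The interval of Hoxa9, -1.54 to 0.35, spans both a large decrease and a small increase. Set against the ICN2-negative mean, the median of the 5 genes was -0.83 in ICN2-positive replicate 1, 0.02 in replicate 2 and -0.08 in replicate 3. Without replicate 1 Hoxa9 differed by -0.15 and Hoxa7 by -0.16, and Hoxa3 and Hoxa10 were on the other side of 0, at 0.15 and 0.12. The second Hoxa9 probe set was also lowest on replicate 1, with 6.91, 7.73 and 7.55 in ICN2-positive cells, against 7.63, 7.49 and 7.55 in ICN2-negative cells, while the second Hoxa3 probe set was not (5.70, 5.50 and 5.82 in ICN2-positive cells, against 5.69, 6.03 and 5.92 in ICN2-negative cells).

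ICN2-positive replicate 1 also stood apart in other measures. The mean log2 intensity of 11 granulocyte-monocyte progenitor genes was 8.87 on it and 11.63 and 11.44 on ICN2-positive replicates 2 and 3, against 12.25 to 12.51 in the ICN2-negative group. Cd34, a surface marker of early progenitors, had 9.50, 11.99 and 11.60 in ICN2-positive cells, against 12.44, 12.38 and 12.31 in ICN2-negative cells. The 3' minus 5' difference of the beta-actin control was 1.01 on replicate 1 and 0.71 and 0.75 on the other ICN2-positive arrays, against 0.79 to 0.85 in the ICN2-negative group. The part of cell composition or RNA quality in the HOXA values was not tested, and in bulk RNA fewer cells of a type and less RNA per cell cannot be told apart.

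**Figure D4:**
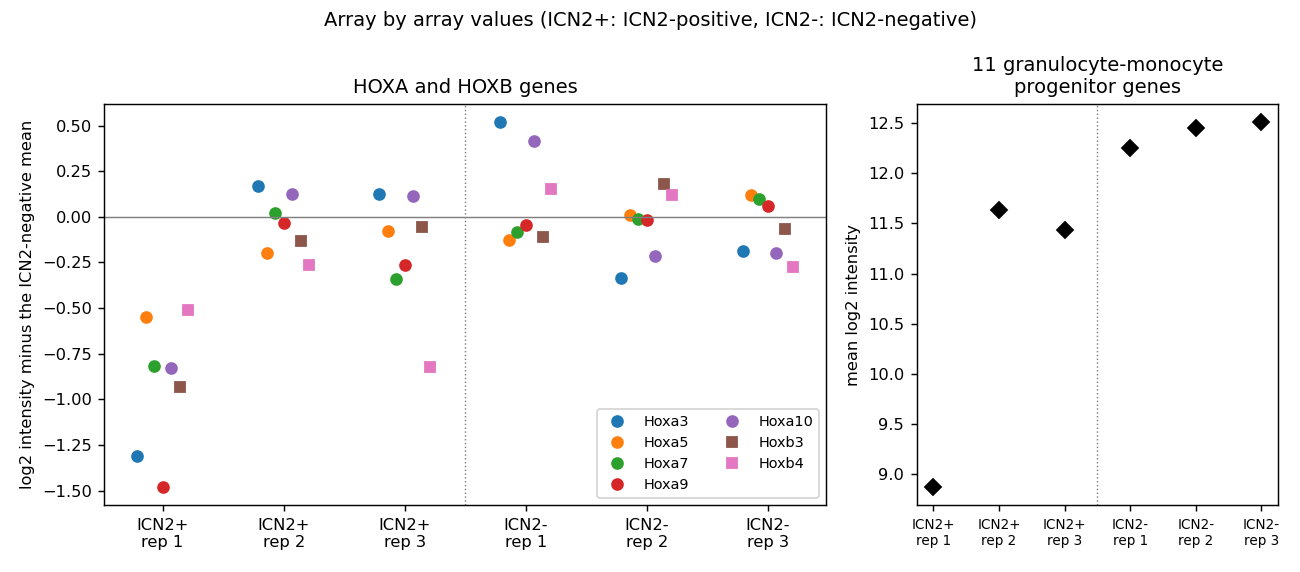
Left, log2 intensity minus the ICN2-negative mean for 5 HOXA genes (circles) and Hoxb3 and Hoxb4 (squares) on each array; right, mean log2 intensity of 11 granulocyte-monocyte progenitor genes on the same arrays. ICN2-positive replicate 1 holds the lowest point for all genes shown except Hoxb4, whose lowest is replicate 3 at 6.53, and also the lowest progenitor gene mean, 8.87.

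Hoxb4, known for expanding blood stem cells when overexpressed, had 6.84, 7.09 and 6.53 log2 intensity in ICN2-positive cells, against 7.51, 7.47 and 7.08 in ICN2-negative cells. The groups touched, with ICN2-positive replicate 2 just above ICN2-negative replicate 3. The difference was -0.53 ± 0.19, with a 95% interval of -0.99 to -0.07 and an adjusted p of 0.144 in limma, and it was -0.54 without ICN2-positive replicate 1 (adjusted p = 0.204 in limma). The size of this difference did not rest on that array. Hoxb3, its neighbour in the cluster, followed the HOXA pattern, with 6.23, 7.03 and 7.10 in ICN2-positive cells, against 7.05, 7.34 and 7.09 in ICN2-negative cells. It differed by -0.38 ± 0.25, and by -0.10 without replicate 1. Hoxb13, a gene of the posterior body, lay between 5.82 and 5.97 on all arrays, with a difference of 0.05 ± 0.07.

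The 3 tested HOXC genes lay between 5.28 and 6.16, near the limit of the filter. Hoxc5 differed by -0.14 ± 0.09, Hoxc9 by -0.11 ± 0.10 and Hoxc6 by 0.08 ± 0.07, with adjusted p of 0.391 to 0.482 in limma. Their intervals run from -0.37 at the low end (Hoxc5) to 0.24 at the high end (Hoxc6), and each difference kept its sign without ICN2-positive replicate 1.

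Hhex, a homeobox repressor needed in early blood and lymphoid progenitors, had 11.42, 11.97 and 11.97 log2 intensity in ICN2-positive cells, against 11.64, 11.66 and 11.49 in ICN2-negative cells. As in Meis1, ICN2-positive replicates 2 and 3 were above every ICN2-negative array and replicate 1 was not. The difference was 0.19 ± 0.17 (adjusted p = 0.508 in limma), and 0.37 without replicate 1 (adjusted p = 0.0716 in limma). Nkx2-3, needed for spleen and gut lymphoid tissue, lay between 7.08 and 7.25 on all arrays and differed by -0.03 ± 0.07. Lhx2, a LIM homeobox gene, was below the limit on every array, at 3.99, 3.73 and 3.70 in ICN2-positive cells and 3.73, 3.75 and 3.73 in ICN2-negative cells.

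The 19 members under the filter were also fitted without it. Their differences ran from -0.29 (Hoxb7) to 0.25 (Hoxb2), and 0 passed an adjusted p of 0.05 in limma (smallest 0.196), where 2.62% of 18193 genes in that fit did. At an unadjusted p under 0.05 there was 1, against 21.6% of all genes in that fit. That was Hoxa13, a gene of the posterior limb and body, with 4.36, 4.43 and 4.49 log2 intensity in ICN2-positive cells, against 4.20, 4.30 and 4.04 in ICN2-negative cells, all under the limit. HOXD values were dim in both groups: Hoxd10 lay between 2.85 and 3.45, Hoxd3 between 3.78 and 4.18, Hoxd9 between 4.25 and 4.48 and Hoxd8 between 4.35 and 4.82.

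Chromatin regulators that keep Hox genes open or shut were read from 2 lists. Of 19 tested activators, which include Kmt2a, the methyltransferase that maintains HOXA expression, 1 passed, a share near the 4.35% of all genes tested. It was lower in ICN2-positive cells, and the list median was 0.10. This was Kdm6a, a demethylase of the Polycomb mark, with 9.78, 9.75 and 10.12 in ICN2-positive cells, against 10.81, 10.78 and 10.74 in ICN2-negative cells (difference -0.89 ± 0.11, adjusted p = 0.0213 in limma). Kdm6a lies on the X chromosome, and the ICN2-negative samples were female. The call was lost when ICN2-negative replicate 1, 2 or 3 was left out (adjusted p = 0.0633, 0.1003 and 0.0933 in limma) or ICN2-positive replicate 2 (0.0513). Kmt2a differed by 0.19 ± 0.13 and Men1, its binding partner menin, by -0.04 ± 0.11.

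Of 21 tested Polycomb genes, which shut Hox clusters, 1 was called, a share near the 4.35% of all genes tested. It rose, and the list median was 0.06. Phc1, a subunit of Polycomb repressive complex 1, had 9.86, 9.80 and 9.81 log2 intensity in ICN2-positive cells, against 9.28, 8.91 and 8.87 in ICN2-negative cells. All ICN2-positive arrays lay above all ICN2-negative ones, with a difference of 0.80 ± 0.12, or 1.74-fold (adjusted p = 0.0322 in limma). The call was lost on leaving out any array except ICN2-negative replicate 1 (adjusted p = 0.0507 to 0.1299 in limma). Cbx2 (0.45 ± 0.10) and Eed (0.31 ± 0.08), subunits of the 2 Polycomb complexes, did not pass (adjusted p = 0.0697 and 0.0888 in limma). The list of 3 Cdx genes, homeobox genes upstream of Hox clusters, had no tested member.

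Of 20 tested genes known to be bound or regulated by Hoxa9 or Meis1, 1 was called, a share near the 4.35% of all genes tested. It fell, and the list median was -0.23, and -0.12 without ICN2-positive replicate 1. Flt3, the receptor for Flt3 ligand on early progenitors, had 5.41, 5.56 and 5.53 log2 intensity in ICN2-positive cells, against 9.06, 9.85 and 8.71 in ICN2-negative cells (-3.71 ± 0.29, adjusted p = 0.00638 in limma). With each array left out in turn the difference ran from -3.96 to -3.39 and passed each time (adjusted p up to 0.0386 in limma). Bcl2, a survival gene, differed by -0.68 ± 0.15 and Lmo2, a transcription cofactor of stem cells, by -0.27 ± 0.06, neither past the test (adjusted p = 0.0680 and 0.0725 in limma). Myb (-0.02 ± 0.06) and Cdk6 (0.12 ± 0.08) lay close to 0.

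Of 5 tested homeobox relatives outside the 41 genes, 0 passed limma's adjusted p, against 4.35% of all genes. At an unadjusted p under 0.05 there was 1 (Tgif2), a share below the 27.4% of all genes. Of 3 TALE genes, Pknox2 differed by 0.00 and Tgif1 by 0.11. Tgif2, a repressor in TGF-beta signalling, had 10.13, 10.14 and 10.24 in ICN2-positive cells, against 9.84, 9.40 and 9.53 in ICN2-negative cells, with a difference of 0.58 ± 0.13 (adjusted p = 0.0645 in limma). Of 2 Hox genes, Hoxd12 differed by -0.04 and Hoxd13 by -0.05.

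Marker lists of other cell types were read in the same fit. The gate on lineage markers would remove mature T, B and NK cells, and the gate on Sca1 would remove Sca1+ stem cells, so those lists read what the sort may have left. In limma 0 genes were called in 5 lists. At an unadjusted p under 0.05, which 27.4% of all genes met, there were 2 of 12 stem and progenitor and 3 of 11 granulocyte-monocyte progenitor genes. There were also 1 of 7 megakaryocyte, 5 of 9 T cell and 1 of 7 endothelial and stromal genes. Only the T cell count was above the share of all genes. Its 5 genes were mixed, with Cd3e, Cd3g, Cd7 and Lat higher and Cd4 lower. Cd4 passed the filter through the ICN2-negative arrays only, where it was high. Of 9 erythroid genes 3 fell (Trim10, Epb42 and Sptb), and of 8 B cell genes 1 fell (Dntt). The uncalled erythroid genes were mixed: Slc4a1 and Tfrc had lower means, and Gata1, Klf1, Epor and Car1 had higher ones. The other B cell genes all had lower means, but the ICN2-negative arrays were uneven. The mean log2 intensity of that list was 10.31, 8.91 and 7.59 on ICN2-negative replicates 1 to 3. On ICN2-positive replicates 1 to 3 it was 6.29, 7.04 and 6.28. Of 11 mast cell and basophil genes 4 rose (Mcpt1, Mcpt2, Mcpt4 and Il4), and of 5 NK cell genes 2 rose (Gzma and Gzmb). Mcpt1, Mcpt2 and Mcpt4 lay above the limit of the filter on the ICN2-positive arrays only. They were thus tested only because they were high in that group. Without a call, Hdc, Fcer1a, Mcpt8, Cpa3 and Ms4a2 of the mast cell and basophil list had lower means, and Cma1 and Gata2 had higher ones. Most of these lower means rested on ICN2-positive replicate 1. Without that array Mcpt8 (0.92), Ms4a2 (0.93), Cpa3 (0.34) and Fcer1a (0.31) were above 0, and Hdc (-0.35) stayed below it. Of the uncalled NK cell genes Nkg7 had a lower mean, and Prf1 and Klrd1 had higher ones. Over all genes 2.58% were called higher and 1.77% lower. Without ICN2-positive replicate 1, 2.91% of all genes were called higher and 3.08% lower. In that fit 6 of 11 granulocyte-monocyte progenitor genes were lower. Higher were 2 of 12 stem and progenitor genes (Tek and Meis1), 1 of 9 T cell genes (Cd7) and 1 of 7 endothelial and stromal genes (Pdgfrb). So were 5 of 11 mast cell and basophil genes (Mcpt1, Mcpt2, Mcpt4, Il4 and Mcpt8). Dntt lost its call in that fit (adjusted p = 0.0531 in limma), and the 1 B cell gene called there was Cd79b, lower at an adjusted p of 0.0444. The erythroid, NK cell and megakaryocyte counts were 3, 2 and 0. Kit, which defines the sort, lay between 10.15 and 10.86 on all arrays. Mean log2 intensity over the stem and progenitor list was 7.94, 9.24 and 9.01 in ICN2-positive replicates 1 to 3, against 8.57, 8.26 and 7.86 in the ICN2-negative group. As for Meis1, which is in that list, replicates 2 and 3 were above the ICN2-negative range and replicate 1 was within it. The genes of the list did not move together. Over all arrays Mycn (3.38), Tek (1.90) and Thy1 (1.12) had the largest differences, and Cd34 (-1.35), Hlf (-1.10) and Slamf1 (-0.18) were lower in ICN2-positive cells. The remaining genes of the list had smaller differences above 0. The part of cell composition in the Meis1 values was not tested.

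The genes whose 6 values were most like those of Meis1 among all genes tested were Vps4b (Pearson r = 0.996), Gm46390 (r = 0.993) and Zfhx3 (r = 0.985). These are descriptions over 6 arrays that share 2 genotypes. Their differences between the groups were 0.07, 0.29 and 0.59 on the log2 scale, all without a call.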

How the data were processed

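Values were the authors' deposited intensities, on a linear scale, for each probe set on each array. RMA (background correction, quantile normalization and probe summary) is named in the submitters' processing notes, without a version. RMA gives all arrays nearly the same distribution, so a change in total RNA per cell would not be seen. The amplification started from 5 ng of RNA, per the labels. Here log2 of the deposited intensity was taken. Of 45101 probe sets, 64 were controls; 34958 had 1 gene, 932 several and 9211 none listed, and only the first kind was named. All 38 measured members matched RefSeq (GRCm38.p6) by gene identifier.

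Groups were compared with lmFit and eBayes of limma 3.58.1 (R 4.3.3) over 12834 genes, with Benjamini-Hochberg adjustment over all of them. No scanner files were used, so no detection calls lie behind the values, and the number of arrays limits the precision. The members and lists were chosen with earlier results of these data known. Every tested member was named, and a member was to be shown on every array if it was called or if its groups did not overlap and differed by at least 1 (log2), which no member met. Other lists gave up to 4 called genes each by smallest p, and likeness was taken to Meis1, since no member was called. Which members are shown on every array, and the values given for uncalled genes of other lists, were chosen after their values were seen. Alternatives covered the filter, centring, array weights, the prior, probe set choice, the replicate number, each array left out and the threshold.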

Additional observations from a re-analysis of the deposited data

How the results depend on the processing

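No member passed the test in 6 of the alternatives that kept all arrays, namely the replicate block, no filter, the stricter filter, median centring, the trended robust prior and plain probe sets only. The stricter filter tested 8 members, and Hoxb4 was not among them. Plain probe sets only left 16, without Pbx3, Meis3 and Hoxa10. Members not tested in an alternative could not be called there. The count of called members was 5 with array weights, where 25.4% of all genes were called (Meis1, Pbx3 and Hhex higher, Pbx2 and Hoxb4 lower), 1 with the mean of probe sets (Pbx3) and 2 at an adjusted p under 0.1 (Pbx3 and Pknox1), and it was 0 to 1 with 1 array left out. Over all genes 558 were called, against 3261 with array weights, 1600 at an adjusted p under 0.1 and 341 with the replicate block. With 1 array left out the count was 99 to 768: ICN2-positive replicates 1, 2 and 3 gave 768, 334 and 141, and ICN2-negative replicates 1, 2 and 3 gave 272, 99 and 100. Hoxa3 turned to 0.12 and Hoxa10 to 0.13 with array weights. With 1 array left out Hoxa3 ran from -0.59 to 0.15 (without ICN2-positive replicate 1), Hoxa10 from -0.36 to 0.12 (the same array; 0.01 without ICN2-negative replicate 1) and Nkx2-3 from -0.0582 to 0.0238 (without ICN2-negative replicate 3). Nkx2-3 turned to 0.0497 as the mean of probe sets and to 0.0491 with plain probe sets only. In an alternative chosen after seeing the data, the other probe sets, Nkx2-3 was again 0.0491 and Pbx4 -0.0458. The cause of these turns was not tested. The replicate numbers were not taken as pairs: deviations from the group means correlated at 0.178, 0.135 and 0.0933 between arrays of the same number, and ICN2-positive replicate 3 was closer to ICN2-negative replicate 2 (0.163). The fit with the replicate block called 0 members and lost the calls of Phc1 and Kdm6a (adjusted p = 0.0570 for both in limma). With 3 arrays a group, members with intervals as wide as those of Hoxa9 and Meis1 could hold differences that were not detectable here.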
